A study of Mus musculus with 8 samples.

Results

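The genes of the mitochondrial ribosomal proteins were compared between the limbal region and the cornea of the mouse. They were taken as the rows of the deposited table whose gene symbol starts with Mrpl or Mrps followed by a digit, which gave 76 of the 23420 named genes. All 76 had more than 3 reads in both libraries, as did 13862 named genes in all. The RNA came from wild type C57BL/6J mice that were 8 weeks old, with no treatment. The groups are named by the tissue taken, and differences between the pools or between the libraries cannot be told apart from it. The limbus group is the limbal rim, the ring between cornea and sclera that holds the epithelial stem cells, and the cornea group is the corneal button inside it, cut apart by hand and pooled over eyes before RNA extraction. Stranded libraries of total RNA were read from both ends. The labels list 8 samples, 4 per tissue, numbered L001 to L004 as sequencing lanes also are, but the table is built from 1 library per tissue. No difference reported here therefore has a replicate check.

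Mitochondria keep a small genome of their own, and the few membrane proteins it encodes, all of them core subunits of the respiratory chain or of ATP synthase, are made by a ribosome that works inside the organelle. Its RNAs come from the mitochondrial genome, while every one of its proteins is encoded in the nucleus, made in the cytoplasm and imported. The small subunit reads the messenger RNA, the large subunit joins the amino acids, and many of the proteins have a counterpart in bacteria whereas others were acquired by mitochondria. The cornea lacks blood vessels, and its inner endothelium is rich in mitochondria, while epithelium makes up much of its RNA.

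Named genes took 21182025 limbal and 26104317 corneal reads. Reads were divided by a size factor per library, and each ratio is given as limbus over cornea on the log2 scale, where 0.58 is 1.5-fold. The 95% confidence interval (CI) of a ratio is an exact Clopper-Pearson interval for the share of a gene's reads that were limbal. It covers counting error only and takes every read as independent. PCR copies of a molecule are not independent, so it may be too narrow even for counting error. A gene is called higher in a tissue beyond counting error where this interval lies wholly on that side of 0.

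The upstream sequence of the members at either end of the range of ratios is shown first, because the genes of this family are transcribed from many separate promoters. The 76 members lie on 17 chromosomes. A promoter of the RefSeq annotation of GRCm38.p6 was found for 67 of them. Those of Mrpl13, Mrpl15, Mrpl19, Mrpl38, Mrpl4, Mrpl54, Mrps28, Mrps34 and Mrps35 were not analysed here. For Mrps21, Mrps6 and Mrpl34, the 3 members with the highest limbus over cornea ratio, the stretches are chr3:95871686-95871764 (minus strand), chr16:92058150-92058269 (plus strand) and chr8:71464806-71464925 (plus strand). For Mrps33 and Mrpl1, 2 of the 3 members with the lowest ratio, they are chr6:39810989-39811108 (minus strand) and chr5:96209961-96210080 (plus strand). Exons cover the whole window of Mrps10, the remaining one of the lowest 3, so none of it is printed. Mrpl9, at chr3:94443198-94443317 (plus strand), is added because it holds the NRF1 motif. Each stretch is free of exons annotated in GENCODE and reads 5′ to 3′ towards the start of the gene. The stretch of Mrpl1 lies within the annotated span of the gene, before the exon at which RefSeq places its start. Capitals mark the NRF1, ETS, YY1, SP1, CCAAT, E-box and TATA motifs described with the other promoters further on.
Mrps21: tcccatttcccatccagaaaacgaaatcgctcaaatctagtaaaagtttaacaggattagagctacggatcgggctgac
Mrps6: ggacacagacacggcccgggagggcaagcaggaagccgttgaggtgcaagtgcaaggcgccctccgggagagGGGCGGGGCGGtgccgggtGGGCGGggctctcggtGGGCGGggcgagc
Mrpl34: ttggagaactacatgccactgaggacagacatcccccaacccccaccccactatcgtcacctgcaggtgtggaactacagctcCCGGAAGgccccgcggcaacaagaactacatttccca
Mrps33: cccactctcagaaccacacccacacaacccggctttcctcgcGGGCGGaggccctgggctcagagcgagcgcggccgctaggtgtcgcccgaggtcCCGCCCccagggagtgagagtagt
Mrpl1: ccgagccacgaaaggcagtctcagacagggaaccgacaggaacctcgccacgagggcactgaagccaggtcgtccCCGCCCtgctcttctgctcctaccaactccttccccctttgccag
Mrpl9: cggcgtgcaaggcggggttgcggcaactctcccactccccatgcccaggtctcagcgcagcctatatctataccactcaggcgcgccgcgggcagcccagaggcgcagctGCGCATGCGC
No motif letters were found in the stretch of Mrps21, 4 SP1 matches lay in that of Mrps6 and 1 ETS match in that of Mrpl34. Those of Mrps33 and Mrpl1 held 2 and 1 SP1 matches.

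As a family, the mitochondrial ribosomal protein genes were present at nearly the same level in both tissues. The median log2 ratio of the 76 members was 0.05, against -0.05 for all 13862 genes, and their ratios ran from -1.02 to 0.65. The standard deviation among members was 0.345 on the log2 scale, compared with 1.19 among all genes. At least 1.5-fold differences, which 43.3% of all genes showed, were found for 2 members in favour of the limbus, where 21.7% of all genes were, and for 3 in favour of the cornea, where 21.5% of all genes were. The other 71 members, 93.4%, lay within 1.5-fold, as did 56.7% of all genes and 64.3% of the 7829 genes whose mean level lay within the members' range (13.5% of these were past 1.5-fold in the limbus and 22.2% in the cornea). In sum, members took 55780 reads in the cornea, or 0.214% of its total, and 52956 reads in the limbus, or 0.25%. The small median is tied to the scaling: division by total reads instead raised every log2 ratio by 0.21, and the median of the members became 0.26.

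**Figure D1:**
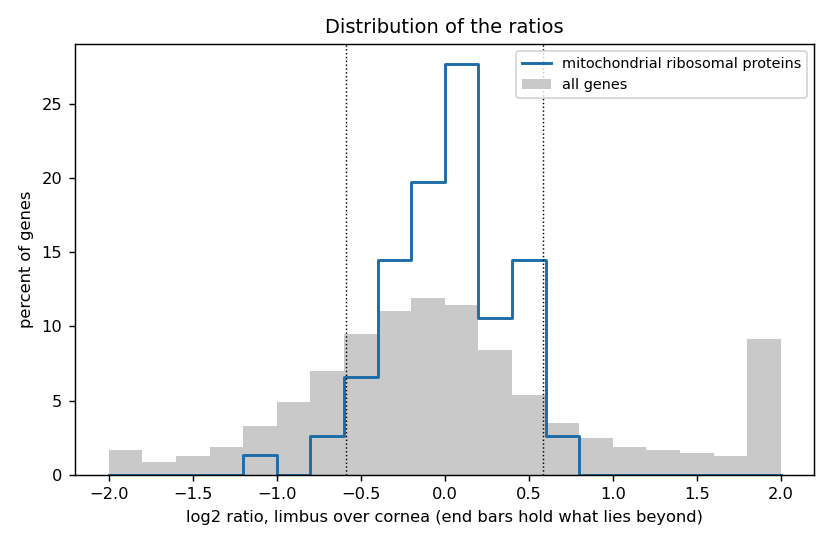
Share of genes (percent, vertical axis) by log2 ratio of limbus over cornea (horizontal axis) for the 76 mitochondrial ribosomal protein genes (line) and all 13862 genes compared (grey bars), with dotted lines at 1.5-fold and the end bars holding all values beyond. The members gather around 0, with 93.4% of them between the dotted lines against 56.7% of all genes.

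Counting error alone was smaller than many of the differences inside this narrow range. Of the 76 members, 26 (34.2%) were past counting error in favour of the limbus, against 33.2% of all genes. In the cornea 21 members (27.6%) were higher, against 40.6% of all genes, and for 29 the interval spanned 0. A side was thus called for 47 members (61.8%), against 73.7% of all genes. Among genes within the members' range of mean reads the background was 29.9% for the limbus and 47.1% for the cornea. Both sides were therefore filled, and the share on the limbal side was close to the background. Scaled to total reads, the numbers became 46 for the limbus and 10 for the cornea.

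**Figure D2:**
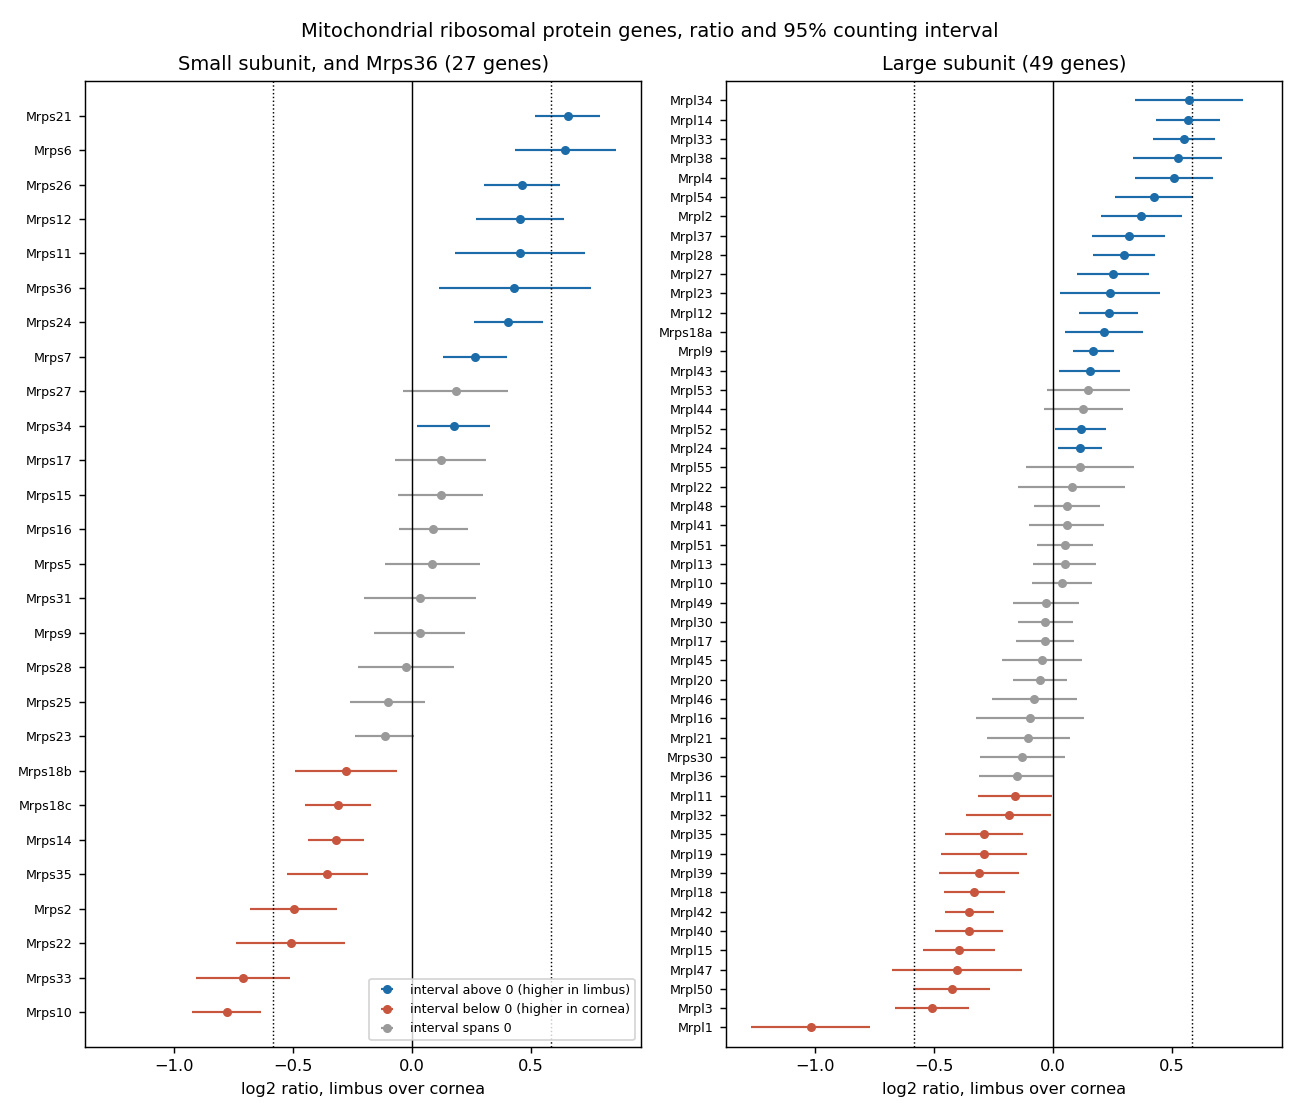
Log2 ratio of limbus over cornea (horizontal axis, point) with its 95% counting interval (bar) for each gene, with the 26 small subunit genes and Mrps36 on the left and the 49 large subunit genes on the right, solid lines at 0 and dotted lines at 1.5-fold. Mrps21 and Mrps6 lie past the dotted line on the limbal side, and Mrps10, Mrps33 and Mrpl1 on the corneal side.

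Mrps21 (bS21m in the structure of the ribosome), a short protein of bacterial descent in the small subunit, had the highest ratio of the family. It is encoded on chromosome 3 from 95862634 to 95871519 (GRCm38) and had 727 corneal and 1071 limbal reads, so that its log2 ratio was 0.65 (95% CI 0.52 to 0.79). The gene has 3 near copies among pseudogenes, which could share its reads. Mrps6, another bacterial-type protein of this subunit, lies on chromosome 16 from 92058270 to 92112227 and had 307 corneal and 449 limbal reads. Its log2 ratio was 0.64 (95% CI 0.43 to 0.86), and 464 bases of its exons overlap other genes on the same strand, among them Slc5a3. Both genes thus lay just past 1.5-fold in the limbus, with intervals that reach below it.

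Mrpl1 encodes the mobile stalk protein beside which spent transfer RNAs leave the large subunit, and its ratio was the lowest. The gene, on chromosome 5 from 96209493 to 96266727, had 426 corneal and 197 limbal reads, so that its log2 ratio was -1.02 (95% CI -1.27 to -0.77), or 2.02-fold in favour of the cornea. Mrps10, a protein of the small subunit head, is encoded on chromosome 17 from 47368887 to 47381417. It had 1104 corneal and 603 limbal reads, so that its log2 ratio was -0.78 (95% CI -0.92 to -0.63). Mrps33, a mitochondria-specific protein of the small subunit on chromosome 6 from 39801804 to 39810988, had 589 corneal and 337 limbal reads and a log2 value of -0.71 (95% CI -0.91 to -0.51). These were the 3 members past 1.5-fold in the cornea, and the next was Mrps22 at -0.51. Mrps10 has 1 near copy among pseudogenes.

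Within the small subunit (26 members), the median log2 ratio was 0.06. On the limbal side were 8 members (30.8%), on the corneal side 8 (30.8%) and on neither side 10. Of all genes, 33.2% were on the limbal and 40.6% on the corneal side. Mrps12, the protein of the decoding centre, had 429 corneal and 550 limbal reads and a log2 value of 0.45 (95% CI 0.27 to 0.64). Mrps11 of the platform had the same ratio of 0.45 (95% CI 0.18 to 0.73) from 199 and 255 reads, and Mrps26, a mitochondria-specific protein, 0.46 (95% CI 0.30 to 0.62) from 580 and 748. At the entrance of the messenger RNA, Mrps24 had a log2 ratio of 0.41 (95% CI 0.26 to 0.55), while that of Mrps5 was 0.09 (95% CI -0.11 to 0.29). The interval of Mrps24 thus lay above 0, and that of Mrps5 spanned it.

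The 4 proteins of the small subunit head listed here fell on both sides. Mrps10 and Mrps14 were higher in the cornea, with log2 ratios of -0.78 and -0.32. Mrps9 stood at 0.03 (95% CI -0.16 to 0.22), with 469 corneal and 449 limbal reads, and Mrps7 at 0.27 (95% CI 0.13 to 0.40) in favour of the limbus. Mrps14 is also the member with the lowest GC content, 39.6%, and relative to genes of like GC its value turned to 0.60.

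Higher in the cornea were also Mrps22 and Mrps2, both known from inherited disorders of mitochondrial translation. Mrps22 had 394 corneal and 259 limbal reads, for a log2 value of -0.51 (95% CI -0.74 to -0.28), and Mrps2 had 615 and 408, for a log2 value of -0.50 (95% CI -0.68 to -0.31). Mrps35 followed with -0.36 (95% CI -0.53 to -0.19). In contrast, Mrps16 and Mrps34, also disease genes, had log2 ratios of 0.09 (95% CI -0.06 to 0.24) and 0.18 (95% CI 0.02 to 0.33). Mrps28, Mrps23, Mrps25, Mrps31, Mrps15, Mrps17 and Mrps27 had intervals that spanned 0, with log2 ratios from -0.11 for Mrps23 to 0.18 for Mrps27.

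The bacterial protein S18 has 3 descendants in the mitochondrion, and their ratios fell on both sides of 0. Mrps18c, which takes the place of the bacterial protein, had 990 corneal and 748 limbal reads, for a log2 value of -0.31 (95% CI -0.45 to -0.17). For Mrps18b, likewise in the small subunit, 418 and 323 reads gave -0.28 (95% CI -0.49 to -0.06). Mrps18a, which sits in the large subunit despite its name, had 585 and 635 reads and a log2 value of 0.21 (95% CI 0.05 to 0.38) in favour of the limbus. The interval of Mrps18a did not overlap those of Mrps18b and Mrps18c. Scaled to total reads, the log2 ratios were 0.42 for Mrps18a, -0.07 for Mrps18b and -0.10 for Mrps18c. Exons of Mrps18b overlap another gene on the opposite strand by 638 bases, and those of Mrps18c overlap another on the same strand by 174. The GC content of Mrps18a was 56.0%, that of Mrps18b 52.6% and that of Mrps18c 44.5%, and relative to genes of like GC the log2 ratios became -0.00026 for Mrps18a, -0.35 for Mrps18b and 0.10 for Mrps18c.

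Within the large subunit (49 members, Mrps30 and Mrps18a included), the median log2 ratio was 0.05. On the limbal side were 17 members (34.7%), on the corneal side 13 (26.5%) and on neither side 19. The shares of all genes were 33.2% on the limbal and 40.6% on the corneal side. Only Mrpl1 of the large subunit members passed 1.5-fold. The highest ratios were those of Mrpl34, with 276 corneal and 384 limbal reads and 0.57 (95% CI 0.35 to 0.80), and Mrpl14, a protein of the face that meets the small subunit, with 780 and 1082 reads and 0.57 (95% CI 0.43 to 0.70). Mrpl33 followed with 856 and 1173 reads and 0.55 (95% CI 0.42 to 0.68). Mrpl38 of the central protuberance had 408 and 549 reads and 0.52 (95% CI 0.34 to 0.71), and Mrpl4 had 534 and 710 reads and 0.51 (95% CI 0.34 to 0.67). All 5 intervals lay above 0, and none of the 5 ratios reached 1.5-fold. For Mrpl33, 107 bases of its exons overlap another gene on the same strand.

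On the corneal side of the large subunit, Mrpl3, a core protein of bacterial descent, had 865 corneal and 569 limbal reads, for a log2 value of -0.51 (95% CI -0.66 to -0.35). Mrpl50 had 775 and 540 reads and -0.43 (95% CI -0.59 to -0.27), Mrpl47 271 and 192 reads and -0.40 (95% CI -0.68 to -0.13), and Mrpl15 858 and 610 reads and -0.40 (95% CI -0.55 to -0.24). These differences were smaller than that of Mrpl1, whose interval ended at -0.77. Of the remaining members on this side, Mrpl42 and Mrpl40 (both -0.35), Mrpl18, Mrpl39, Mrpl19, Mrpl35, Mrpl32 and Mrpl11 had log2 ratios of -0.35 to -0.16.

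Among the remaining members on the limbal side of the large subunit, Mrpl54, with 557 corneal and 699 limbal reads, had a log2 ratio of 0.42 (95% CI 0.26 to 0.59) and Mrpl2, a core protein near the catalytic centre, with 522 and 632 reads, one of 0.37 (95% CI 0.20 to 0.54). Mrpl37, Mrpl28, Mrpl27, Mrpl23, Mrpl12, Mrps18a, Mrpl9, Mrpl43, Mrpl52 and Mrpl24 had log2 ratios from 0.11 to 0.32. Mrpl9 was the member with the most reads, 2059 in the cornea against 2168 limbal ones. The intervals of Mrpl10, Mrpl13, Mrpl16, Mrpl17, Mrpl20, Mrpl21, Mrpl22, Mrpl30, Mrpl36, Mrpl41, Mrpl44, Mrpl45, Mrpl46, Mrpl48, Mrpl49, Mrpl51, Mrpl53, Mrpl55 and Mrps30 spanned 0, with log2 ratios from -0.15 for Mrpl36 to 0.15 for Mrpl53.

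Functional sites of the large subunit were mixed. In the stalk that recruits translation factors, Mrpl12 had 1031 corneal and 1135 limbal reads and a log2 value of 0.23 (95% CI 0.11 to 0.36), and its anchor Mrpl10 had 0.04 (95% CI -0.09 to 0.16). Mrpl11, at the base of that stalk, had 728 and 610 reads and -0.16, with an interval that ended just below 0 and a sign that turned under total reads. The 5 members listed here for the central protuberance, a list that may be incomplete, ran from -0.35 for Mrpl40 to 0.52 for Mrpl38. Of these, Mrpl18 stood at -0.33, and Mrpl46 and Mrpl48 were on neither side. For the 5 members listed here around the exit tunnel, the ratios ran from -0.05 for Mrpl45, which faces the inner membrane, to 0.24 for Mrpl23. Their standard deviation was 0.118, and Mrpl24 (0.11, 95% CI 0.02 to 0.21) and Mrpl23 lay on the limbal side. This narrow range depends on the list, which may be incomplete and does not hold Mrpl4 (0.51) or Mrpl47 (-0.40).

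Members of bacterial origin and those acquired by mitochondria had like medians. The 48 genes with a bacterial counterpart had a median log2 ratio of 0.06. Of them, 18 (37.5%) lay on the limbal and 14 (29.2%) on the corneal side. For the 27 mitochondria-specific genes the median was 0.03, with 7 (25.9%) on each side. Of all genes, 33.2% were on the limbal and 40.6% on the corneal side. Mrps30, named for the small subunit but placed in the large one, had 555 corneal and 475 limbal reads and a log2 value of -0.13 (95% CI -0.31 to 0.05). Mrpl44, a member related to ribonucleases, had 588 and 601 reads and 0.13 (95% CI -0.04 to 0.29). Mrps36 is now known as a subunit of the 2-oxoglutarate dehydrogenase complex and not of the ribosome, and had the fewest reads in both libraries, 149 corneal and 188 limbal ones. Its log2 ratio was 0.43 (95% CI 0.11 to 0.75).

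Although the proteins are built into the ribosome in fixed proportions, the levels of the messenger RNAs differed widely. Reads per kilobase (kb) of exon, which allow genes to be compared, ranged from 72.7 to 2799.6 in the cornea and from 47.4 to 3036 in the limbus. Mrpl52 was first in both tissues, with 2799.6 normalized reads per kb in the cornea and 3036 in the limbus, from 1421 and 1442 reads. Mrpl42 (2529 and 1982 normalized reads per kb), Mrpl33 (1732 and 2537), Mrps21 (1429 and 2250.3) and Mrpl14 (1169.8 and 1734) followed by the mean of both tissues, though not in this order within each. At the other end were Mrps17 in the cornea, at 72.7 normalized reads per kb, and Mrpl1 in the limbus, at 47.4. The exon length used is the union over the annotated coding transcripts, so a gene with long alternative exons, such as Mrps17, has a low value on this scale. The median was 414 normalized reads per kb in the cornea and 457 in the limbus, against 152 and 143 for 13247 protein-coding genes.

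**Figure D3:**
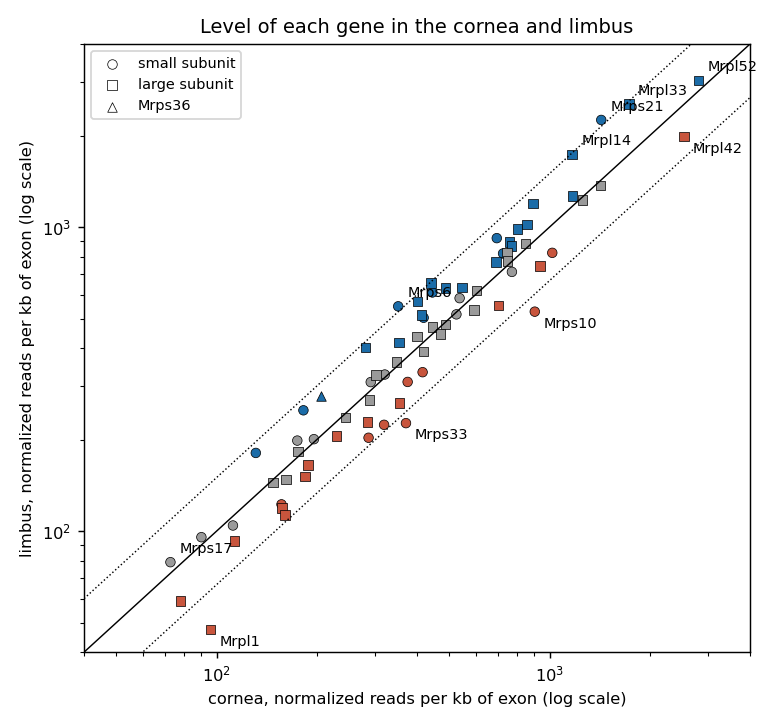
Level of each gene in the cornea (horizontal axis) and limbus (vertical axis), in normalized reads per kb of exon on log scales, with the solid line at equal levels and dotted lines at 1.5-fold. Circles are small subunit genes, squares large subunit genes and the triangle Mrps36, in blue where higher in the limbus beyond counting error, red where higher in the cornea and grey otherwise; Mrpl52 is the uppermost point and Mrpl1 the lowest.

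The ratio of a member moved with the base composition of its transcript. Pearson's r between log2 ratio and GC content was 0.62 and Spearman's rho 0.63 over the 76 members, and 0.35 and 0.50 over the 13247 protein-coding genes. Among 7726 of the latter within the members' range of mean reads, r was 0.42 and rho 0.62. These are correlations across genes of the same pair of libraries, so they describe the libraries and carry no test. The 25 members of lowest GC (39.6% to 47.5%) had a median log2 ratio of -0.19, with 3 on the limbal and 13 on the corneal side. They were set beside protein-coding genes of the same GC span within the members' range of mean reads, members included. Those genes had a median of -0.53, with 9.30% on the limbal and 79.0% on the corneal side. For the 26 members in the middle the median was -0.03, against -0.11, with 5 on the limbal and 7 on the corneal side (25.3% and 43.8% of the genes beside them). The 25 members of highest GC (52.7% to 60.6%) had a median of 0.30, with 18 on the limbal and 1 on the corneal side. The genes beside them had a median of 0.19, with 52.3% and 16.2%. The side on which a member fell thus went with its GC content, as for genes in general, and the part of base composition in the ratios was not tested. Exon length, which was itself tied to GC (r -0.63), showed the opposite trend over the members (r -0.44, rho -0.47).

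**Figure D4:**
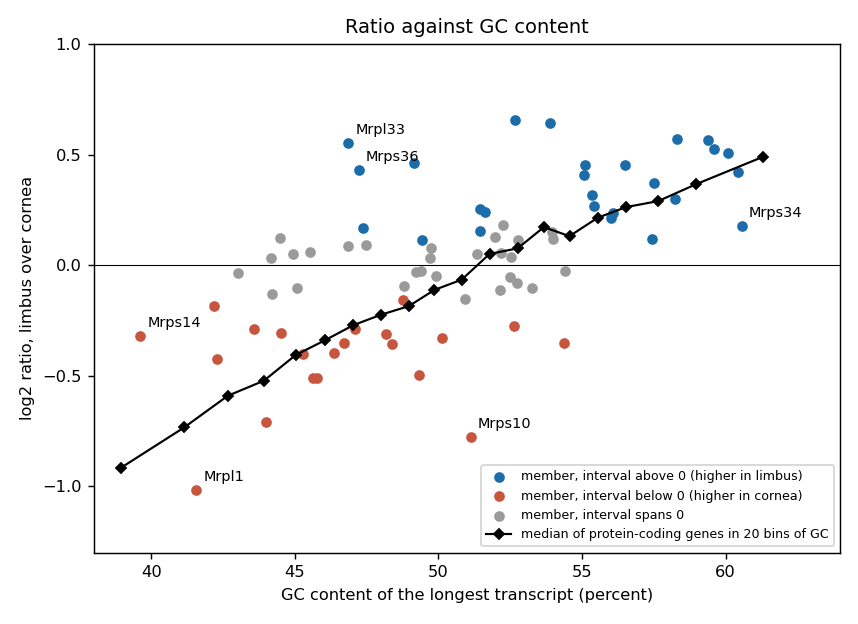
Log2 ratio of limbus over cornea (vertical axis) against GC content of the longest transcript in percent (horizontal axis) for the 76 members (points, coloured by the side of their counting interval). Diamonds joined by a line are the medians of the 13247 protein-coding genes in 20 bins of GC; members lie higher at higher GC, as the line does, with Mrpl33 and Mrps36 above it and Mrps10 below.

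When the median of protein-coding genes of like GC was subtracted, an alternative added after the values were seen, 26 members lay above 0 beyond counting error and 12 below, and the standard deviation among members was 0.289 in place of 0.345. Among all protein-coding genes the shares were 33.5% above and 32.9% below, so the share of members above, 34.2%, was close to the background. Mrps10 kept a value of -0.71. Mrps21 and Mrps6 came to 0.58 and 0.47 and Mrpl1 and Mrps33 to -0.28 and -0.19, all 4 of them inside 1.5-fold on this scale. Mrpl33 went from 0.55 to 0.82, the highest value on this scale. Mrps10 was the only member past 1.5-fold on the corneal side after this step, and on the limbal side were Mrpl33, Mrps36 (0.70), Mrps26 (0.65), Mrps17 (0.64) and Mrps14 (0.60), 5 in all.

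Other properties also set the members apart from genes in general, as a description. Their exon length had a median of 1339.5 bases against 3330.0 for protein-coding genes, and their longest transcript 5 exons against 9. The start of another protein-coding gene on the opposite strand, pointing away without overlap, lay within 1000 bases for 17 of 76 members (22.4%). The same held for 1298 of 13247 protein-coding genes (9.80%). Pairs whose spans overlap at their starts, such as Mrps11 and Mrpl46, were not counted. Such head-to-head pairs often share a promoter. Mrpl54 and Apba3, 26 bases apart, were both higher in the limbus, and Mrpl32 and the proteasome gene Psma2, 75 bases apart, both in the cornea. In these 2 pairs alone were both genes on a side, and the direction of Mrpl32 turned with total reads (0.019) and relative to genes of like GC (0.40), as did that of Mrpl54 in the latter case (-0.066). Across the 17 pairs r between the log2 ratios was -0.09.

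The 250 bases upstream of the 67 members with a promoter were searched on both strands, and the share of 9930 expressed protein-coding genes with the same letters is given for comparison. The NRF1 motif GCATGCGC, from the site of a regulator of nuclear genes for mitochondria, was found for 8 members (11.9% against 4.47%), and in Mrpl9 its matches on both strands overlap. The ETS motif CCGGAAG, recognised by GABP, was found for 16 (23.9% against 13.3%). The SP1 motif GGGCGG was held by 32 (47.8% against 58.8%), CCAAT by 25 (37.3% against 36.2%), the E-box CACGTG by 5 (7.46% against 8.29%), TATAAA by 4 (5.97% against 6.41%) and the YY1 motif AAGATGGC by 4 (5.97% against 1.95%). The median log2 ratio of members with and without the letters was 0.0025 and 0.06 for NRF1, 0.10 and 0.03 for ETS, 0.15 and 0.05 for YY1, 0.09 and -0.03 for SP1, 0.03 and 0.06 for CCAAT, -0.05 and 0.05 for the E-box and 0.02 and 0.05 for TATAAA. A match is a description of letters only and says nothing about binding.

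Further genes of mitochondrial translation came from lists and not from the symbol rule. Of the 7 mitoribosomal proteins with other symbols, 4 (57.1%) were on the limbal and 2 (28.6%) on the corneal side. The shares of all genes were 33.2% and 40.6%. The median log2 ratio of the 7 was 0.25. Ptcd3, an RNA-binding protein of the small subunit, had 766 corneal and 434 limbal reads and -0.72 (95% CI -0.90 to -0.55). Mrp63 had 364 and 468 reads and 0.46 (95% CI 0.26 to 0.66), and Ict1, a release enzyme built into the large subunit, 0.25 (95% CI 0.07 to 0.42). Dap3, a GTP-binding protein of the small subunit, had 1114 and 946 reads and -0.14 (95% CI -0.27 to -0.01).

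Of the 15 genes listed as mitochondrial translation factors, among them the insertase Oxa1l, 9 (60%) were higher in the cornea. That held for 40.6% of all genes and 47.1% of those in the members' range of mean reads. Oxa1l alone (6.67%) was higher in the limbus, against 33.2% and 29.9%. The median log2 ratio of the list, -0.25, became -0.05 after scaling to total reads and -0.02 relative to genes of like GC. Guf1, an elongation factor, was the lowest with 554 corneal and 340 limbal reads and -0.61 (95% CI -0.81 to -0.41). Oxa1l, the insertase of the inner membrane, was the highest with 676 and 815 reads and 0.37 (95% CI 0.22 to 0.51), and the elongation factor Tufm had 0.04 (95% CI -0.09 to 0.17). The 26 assembly factors had a median of 0.00, with 7 (26.9%) on the limbal and 8 (30.8%) on the corneal side. The shares of all genes were 33.2% and 40.6%. Lowest of the assembly factors was the rRNA methyltransferase Tfb1m at -0.97 (95% CI -1.26 to -0.69). Mpv17l2 was the highest at 0.79 (95% CI 0.55 to 1.05).

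Of the 17 mitochondrial aminoacyl-tRNA synthetases, which load transfer RNAs, 6 (35.3%) were higher in the cornea and 1 (5.88%), Tars2, in the limbus. The shares were 40.6% and 33.2% among all genes, and 47.1% and 29.9% among those in the members' range of mean reads. Of the 17 ratios, 11 were below 0. The median over the list was -0.20 on the log2 scale. Lars2 stood far from the others, with 42654 corneal and 4013 limbal reads, so that its log2 ratio was -3.31 (95% CI -3.36 to -3.27). Its reads dominate the sum of the list, 49912 corneal and 9809 limbal reads, and where they lie along the gene was not tested. Tars2 had 384 and 510 reads and 0.51 (95% CI 0.31 to 0.70). With total reads the median of the list turned to 0.0083.

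The 12 genes of mitochondrial DNA transcription and replication had a median log2 ratio of -0.30. Of these genes, 6 (50%) were higher in the cornea, near the background of 40.6% to 47.1%. In the limbus 1 was higher, Polg (8.33%), against a background of 29.9% to 33.2%. The median was -0.092 with total reads. Mterf2, listed as Mterfd3, was the lowest with 142 corneal and 50 limbal reads and -1.41 (95% CI -1.91 to -0.94). Tfam, which packages the mitochondrial genome, had 903 and 607 reads and -0.48 (95% CI -0.63 to -0.33). The DNA polymerase gene Polg was the highest with 579 and 780 reads and 0.53 (95% CI 0.37 to 0.68), whereas the RNA polymerase gene Polrmt had 0.14 (95% CI -0.06 to 0.35). Of 9 regulators of mitochondrial biogenesis, 3 (33.3%) were higher on each side, against 33.2% of all genes in the limbus and 40.6% in the cornea. Yy1 had 1733 corneal and 711 limbal reads and -1.19 (95% CI -1.32 to -1.06), and Gabpa, the DNA-binding part of GABP, 1542 and 804 reads and -0.84 (95% CI -0.97 to -0.72). Nrf1 had 656 and 644 reads and 0.07 (95% CI -0.09 to 0.23). On the limbal side were Esrra (0.29, 95% CI 0.20 to 0.39), Myc (0.57, 95% CI 0.41 to 0.73) and the coactivator gene Ppargc1a, with 29 and 48 reads and 0.82 (95% CI 0.13 to 1.54). The genes encoded by the mitochondrial genome itself were not analysed here.

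**Figure D5:**
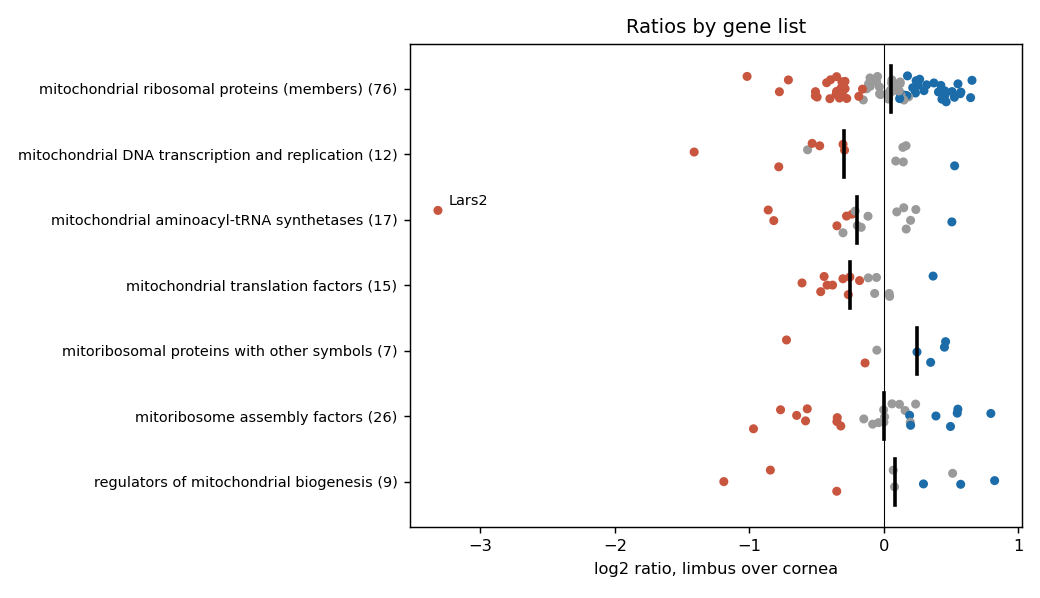
Log2 ratio of limbus over cornea (horizontal axis) of each gene (points, blue where higher in the limbus beyond counting error, red where higher in the cornea, grey otherwise) in the family and in 6 lists of other genes of the pathway, with the number of genes in brackets and the median as a black bar. The median lies at 0.05 for the family, at 0.25 for the mitoribosomal proteins with other symbols and at -0.30 for transcription and replication, and Lars2 lies far to the left.

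Of 2 larger families, the ratios of one were about as narrow and those of the other wider. The 81 cytoplasmic ribosomal protein genes compared had a median log2 ratio of 0.04 and a standard deviation of 0.293, with 92.6% within 1.5-fold. The nuclear genes of the respiratory chain were taken by a symbol rule that also takes in ATP synthase and assembly factor genes. The 87 compared had a median of 0.12 and a standard deviation of 0.628, with 86.2% within 1.5-fold. Their highest log2 ratio was 4.33, which adds to the standard deviation. Their quartiles were -0.17 and 0.43, against -0.21 and 0.24 for the 76 members.

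The RNA of cell type markers differed between the tissues by more than that of most members. Of the 5 markers of corneal epithelium compared, 4 were higher in the cornea and Clu in the limbus. All 6 markers of limbal and conjunctival epithelium were higher in the limbus, with summed normalized reads of 84373 in the cornea against 658791. Summed in the same way, skeletal muscle markers went from 434 to 11141 (25.6-fold). Before normalization, Tnni2 held 409 of their corneal reads and the other 7 genes from 1 to 10 each. Vessel endothelium went from 232 to 2503, melanocytes from 307 to 1658 and leukocytes from 512 to 1349. Fibroblast markers went from 57845 to 108547, with 4 of 5 higher in the limbus and Pdgfra in the cornea. Keratocyte markers went from 27403 to 14302. That list ran both ways, with Kera and Aldh1a1 higher in the cornea, Ptgds and Cd34 in the limbus and Lum on neither side. Mast cell markers summed to 4998 in the cornea and 2883 in the limbus, nearly all from Kit, with Mcpt4 and Tpsb2 at 0 in the cornea. The part of these cells in the ratios of the members was not tested, and in a bulk sample fewer cells of a type and less RNA per cell cannot be told apart.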

How the data were processed

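RNA of pooled limbal rims and corneal buttons was sequenced with the QIAseq Stranded Total RNA kit. The authors trimmed adaptors, used CLC Genomics Workbench 20 to map reads to GRCm38 (mm10), and named the trimmed mean of M-values as normalization. They deposited 1 table with, per gene, the mean normalized signal over both libraries. The authors also deposited a fold change on the log2 scale and its standard error, used here only to work back the reads, and p-values and adjusted p-values, which were not used. A note in the file gives the direction. Of 40904 rows, 17484 name no gene and were left out.

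Each mean is a sum of whole reads of 2 libraries, 109 cornea reads counting as 102 limbus reads. The pair of read numbers that met the deposited log2 values was found for all 17442 genes with a mean above 0, to under 0.001. For the members the largest miss was 2.2e-06 and the smallest miss of another pair 0.122. Read numbers are thus derived, not a deposited count table. On simulated data, 17055 of 17057 genes were found exactly, and 198 of 200 genes changed 2-fold fell on the right side.

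Ratios used size factors 1.03 (cornea) and 0.967 (limbus). Depth was 26104317 corneal and 21182025 limbal reads. With 1 library per tissue no test was made, and genes with 3 reads or fewer in a library were not compared. Positions, GC content and exon lengths are from GENCODE M21 (GRCm38), which matched all members. Whether counting used strand is not given in the sources used here, and exons of 25 members overlap another gene. Near copies were found with BLAST+ 2.17.0 (at least 90% identity over 50% of the transcript). Python 3.11.15, numpy 2.4.6, scipy 1.17.1 and pandas 2.3.3 were used. Alternatives were scaling to total reads, a trimmed mean of M-values, centring, a pseudocount of 1, a mean of at least 50, no filter, and other choices of members. Named in full were the 8 members with the highest and the 8 with the lowest ratio, the 5 with most reads per kb, members of known role, and the ends of each list; Tfam, Nrf1, Gabpa, Myc, Esrra, Dap3, Ict1, Polrmt, Tufm and the head-to-head pairs were named after their values were seen. The members and lists were chosen with earlier results of these data known.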

Additional observations from a re-analysis of the deposited data

How the results depend on the processing

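No paired analysis was possible because the table holds 1 library per tissue, and for the same reason leaving out a replicate and the replicate block were not run. A pseudocount of 1, a mean of at least 50 and no filter changed no count or median by over 1.5 times or 0.1, nor the direction of any member. Scaled to total reads, every log2 ratio rose by 0.21 and the limbus was higher for 45.1% of all genes and the cornea for 29.7% (33.2% and 40.6% before). The limbus was then higher for 46 members and the cornea for 10, past 1.5-fold in 13 and 1, with a median of 0.26 (small subunit 0.27, large subunit 0.25). List medians became 0.45 for mitoribosomal proteins of other symbols, -0.047 for translation factors, 0.21 for assembly factors, 0.0083 for synthetases, -0.092 for transcription and replication and 0.28 for regulators, and of the genes on a side Mrpl11 (0.046), Mrpl32 (0.019) and Dap3 (0.066) turned sign, as did 13 members whose interval had spanned 0. The members past 1.5-fold in the limbus were 4 with the trimmed mean of M-values, 5 after centring, 1 without the 25 members whose exons overlap another gene and 1 without the 6 with a near copy; without overlaps 17 members were higher in the limbus. Relative to genes of like GC, chosen after seeing the data, 12 members were higher in the cornea, and past 1.5-fold were 5 limbal and 1 corneal. Medians of translation factors, synthetases and transcription and replication were then -0.019, -0.049 and -0.049. Of the genes on a side, this step turned the signs of Mrpl50 (0.16), Mrpl47 (0.0049), Mrpl52 (-0.17), Mrps18a (-0.00026), Mrps18c (0.10), Mrpl12 (-0.028), Mrps34 (-0.31), Mrps14 (0.60), Mrpl11 (0.026), Mrpl32 (0.40), Mrpl35 (0.23), Mrpl54 (-0.066) and Esrra (-0.20), and further those of 11 members whose interval had spanned 0, among them Mrpl17 (0.56), Mrps30 (0.39) and Mrps25 (0.30), and of Polrmt (-0.35) and Tufm (-0.17). The cause was not tested.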
